A study of Mus musculus with 5 samples.

Results

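The Schlafen genes Slfn1, Slfn5, Slfn8 and Slfn9 were followed in 692 single T cells taken from the mouse brain after stroke. They were picked by gene symbol, and all 4 were among the 2926 mouse genes of the deposited table. One more Schlafen gene in the table, Slfn2, is given beside them. All mice were wildtype C57BL/6 and all had a photothrombotic stroke, in which light on a dye in the blood closes cortical vessels. Trained mice had a running wheel from day 2, untrained mice had none, and CD3+ cells of the injured hemisphere were sorted from both on day 14, after enrichment on 37% Percoll and staining for CD45 and CD3. Each sample was read by SORT-seq, in which a sorted cell sits alone in a barcoded well of a 384-well plate. The 3 trained samples held 66 to 168 cells, and the 2 untrained samples 144 and 190. No age is given in the sources used here, nor which animals went into a sample, so the p-values below rest on these 5 samples alone. For training they measure the spread between samples, and for classes of cells how the within-sample difference varied from sample to sample.

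Schlafen proteins share a core that binds nucleic acid, and the long members carry a helicase-like part in addition. Slfn1 and Slfn2 are short members, known in mice as brakes on T cell growth, with Slfn2 needed to keep resting T cells resting. Slfn5, Slfn8 and Slfn9 are long members, and several genes of the family are induced by type I interferon in mouse cells. Kcnq1ot1, against which the family is also set here, is a long noncoding RNA made antisense to Kcnq1 from the paternal chromosome and kept in the nucleus.

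The genes lie in 1 cluster on mouse chromosome 11, in the order Slfn5, Slfn9, Slfn8, Slfn10-ps, Slfn2, Slfn1, Slfn4, Slfn3 and Slfn14 (GENCODE vM21). Type I interferon acts on its target genes through the interferon-stimulated response element, so the 100 bases before each member's start that hold a match to it, or to its core, are shown. They come from RefSeq (GRCm38.p6), run 5′ to 3′ on the strand of the gene, and carry the match in capitals. The stretches of Slfn1, Slfn8 and Slfn9 end at the base before the start, and that of Slfn5 begins 200 bases before it.
Slfn1, chr11:83116720-83116819, plus strand: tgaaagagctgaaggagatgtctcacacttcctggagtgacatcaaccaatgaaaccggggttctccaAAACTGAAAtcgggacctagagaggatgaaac
Slfn5, chr11:82951902-82952001, plus strand: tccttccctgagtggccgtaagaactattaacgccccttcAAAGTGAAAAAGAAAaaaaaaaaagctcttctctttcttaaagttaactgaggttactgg
Slfn8, chr11:83020811-83020910, minus strand: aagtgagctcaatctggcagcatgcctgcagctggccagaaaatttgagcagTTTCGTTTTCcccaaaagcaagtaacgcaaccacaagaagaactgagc
Slfn9, chr11:82991831-82991930, minus strand: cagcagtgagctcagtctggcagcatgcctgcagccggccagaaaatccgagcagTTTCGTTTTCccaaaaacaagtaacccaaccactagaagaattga

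The element was searched on both strands as GAAA, any 2 bases and GAAA, and its core as AAANNGAAA, which every match to the longer form also contains. Slfn8 and Slfn9 held the same match, GAAAACGAAA, on the strand opposite to the gene. Slfn5 held GAAAAAGAAA and, overlapping it, the core AAAGTGAAA. Slfn1 held the core alone, as AAACTGAAA. The window of Slfn2 held neither, and no member held TTCNNNGAA, the gamma-activated site. Among 2849 windows of genes measured here 4.04% held the longer form and 9.34% the core, against 32.6% and 42.7% of 89 windows of interferon-stimulated genes. Aligned on the match without gaps, 43 of 59 bases were identical between Slfn8 and Slfn9, and 15 to 22 of 59 in the other 5 pairs. A match is a string of letters and not a measured binding site.

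The same pair was alike in its transcripts. Of all runs of 25 bases in the longest Slfn8 transcript, 23.5% also occurred in Slfn9, and 16.3% of those of Slfn9 occurred in Slfn8. Reads of the pair may have been shared out between them, which was not tested. In the last 500 bases, where an assay of transcript ends reads, these shares were 9.24% for Slfn8 and 0% for Slfn9. No other pair among the 4 shared a run of 25 bases. Slfn5 overlaps Slfn5os on the other strand, and the strand rule of the counting is not given in the sources used here.

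Every value below is a score. The deposited entries run from -2.12 to 3.74 with 72.7% below 0, so a score places a cell relative to the others for that gene, with most cells below 0, and does not say how many transcripts were counted. Scores cannot be compared in level between genes, and the depth is unknown. Untrained sample 2 stood apart in scale, with a median SD between cells of 0.728, against 0.370 to 0.515 in the other 4 samples, and 1607 of its genes had a mean of 0 within 1e-06. Most counts of cells above 1, and results seen to rest on it, are given with and without it. Ranks by SD are given with it alone.

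Each of the 4 genes was low in most cells and high in a minority, as was the table at large, with 72.7% of all entries below 0. Slfn1 was above 0 in 30.2% of cells, Slfn5 in 25.9%, Slfn8 in 30.5% and Slfn9 in 32.4%. The share of cells above 1 was not counted over all genes, so the counts that follow set no member apart. Slfn1 had a score above 1 in 68 of 692 cells (9.83%), Slfn5 in 54 (7.80%), Slfn8 in 92 (13.3%) and Slfn9 in 120 (17.3%). Without untrained sample 2 these shares were 8.17%, 6.57%, 11.95% and 15.9% in the same order. Slfn9 was the 10th most variable of the 2926 genes by the mean SD between cells within a sample (0.930, against a median of 0.501 over all genes). Slfn8 ranked 55th (0.729), Slfn1 followed with an SD of 0.662, and Slfn5 ranked 928th (0.540). Slfn2 ranked 623rd.

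Slfn1, a short member, had mean scores of -0.048, 0.025 and -0.047 in trained samples 1 to 3, against -0.032 and -0.042 in untrained samples 1 and 2. Its samples overlapped, and the medians, -0.379, -0.243 and -0.289 in trained and -0.158 and -0.398 in untrained samples, lay below the means in each. Slfn5, a long member, averaged 0.054, -0.068 and -0.047 in trained samples, against -0.001 and -0.052 in untrained samples. Both untrained samples fell inside the trained range. Slfn8 averaged -0.042, 0.006 and -0.039 in trained samples, against -0.093 and 0.000 in untrained samples, with untrained sample 1 the lowest of the 5. Slfn9 averaged 0.041, 0.126 and 0.076 in trained samples, against 0.007 and 0.077 in untrained samples, and trained sample 2 was the highest. In untrained sample 2 the highest Slfn1, Slfn5 and Slfn9 score, 2.517, was shared by 11, 7 and 15 cells, and in each of the other samples 1 cell held the maximum of each gene.

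**Figure D1:**
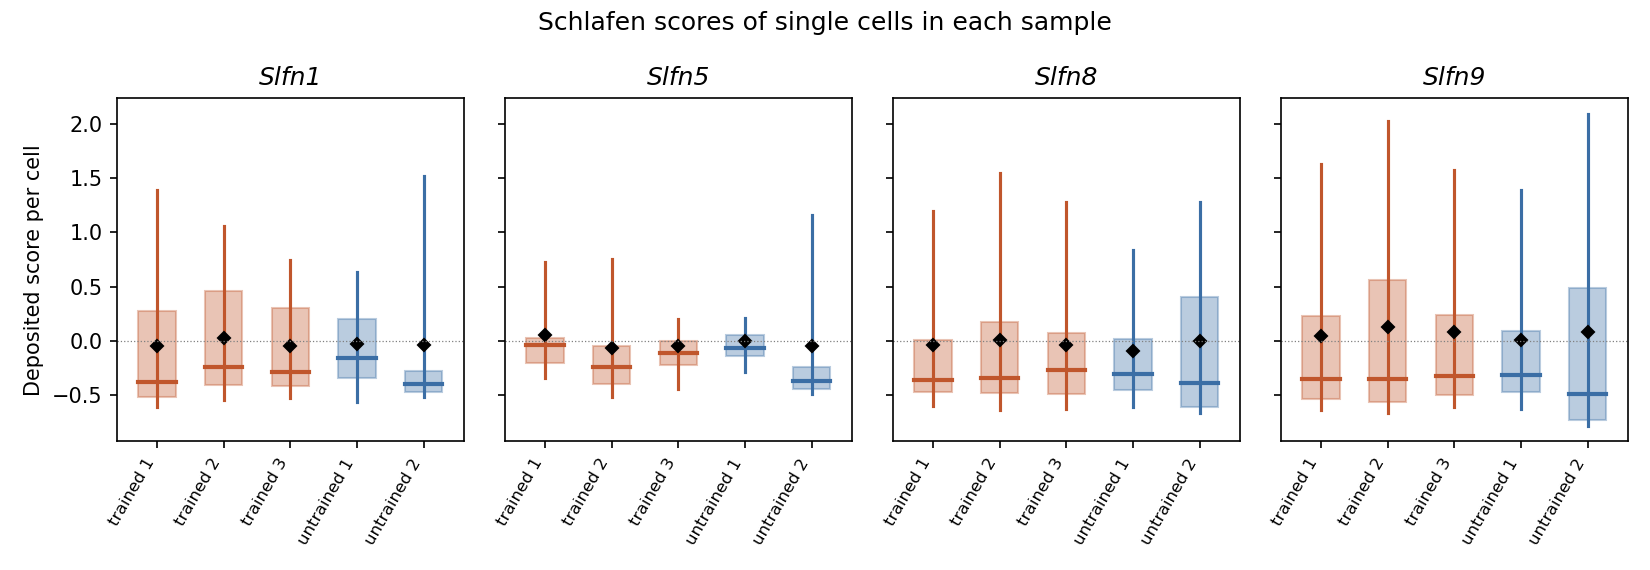
Deposited score per cell (vertical axis) of Slfn1, Slfn5, Slfn8 and Slfn9 in the 3 trained and 2 untrained samples; boxes run from the 25th to the 75th percentile with the median as a bar, lines from the 10th to the 90th, and diamonds are means. In each panel the medians lie below 0 and the upper lines are long, reaching 2.10 for Slfn9 in untrained sample 2, and trained and untrained means overlap.

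Across cells Slfn8 and Slfn9 went closely together, and Slfn1 and Slfn5 more loosely. Within samples, Slfn8 and Slfn9 correlated at a mean Pearson r of 0.76 (lowest sample 0.68, highest 0.80, n = 5 samples), and Slfn1 and Slfn5 at 0.25 (0.20 to 0.29). Of the 2925 other genes, Slfn9 was the nearest to Slfn8, and Slfn8 the 19th nearest to Slfn9. Slfn1 was the 40th nearest to Slfn5, but Slfn2 (0.28), the 60th nearest to Slfn1, was nearer to it than Slfn5. Between the 2 sets the mean r was -0.13 for Slfn1 with Slfn8, -0.25 for Slfn1 with Slfn9, -0.030 for Slfn5 with Slfn8 and -0.18 for Slfn5 with Slfn9. These values lay at or above the median of all genes with Slfn8 (-0.19) and with Slfn9 (-0.25), and below that with Slfn1 (0.11) and with Slfn5 (0.057). All correlations are descriptions, since the cells of a sample share a plate and a normalisation and the depth of each cell is unknown. The cells with a score above 1 were counted in the same way, over all samples and with no test. Of 92 such cells for Slfn8, 76 (82.6%) were also above 1 for Slfn9, which is 63.3% of the 120 Slfn9 cells, and 4 were above 1 for Slfn1. Of 68 such cells for Slfn1, 19 (27.9%) were above 1 for Slfn5, which is 35.2% of the 54 Slfn5 cells, and 1 was above 1 for Slfn9. Without untrained sample 2, 50 of 60 Slfn8 cells (83.3%) were above 1 for Slfn9 and 12 of 41 Slfn1 cells (29.3%) for Slfn5. These were 62.5% of 80 Slfn9 cells and 36.4% of 33 Slfn5 cells.

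Slfn1 and Slfn5 went with interferon genes. An interferon score was taken as the mean over 83 measured genes, of 122 listed, that interferon is known to induce, with no Schlafen gene among them. Slfn1 correlated with it at 0.46, 0.55 and 0.49 in trained samples and 0.47 and 0.52 in untrained samples. Slfn5 did so at 0.65, 0.34 and 0.43 in trained samples and 0.46 and 0.43 in untrained samples. The median over all genes outside the score was 0.22, and Slfn1 ranked 38th and Slfn5 69th of 2843. Of the 83 genes, 82 had a mean r above 0 with Slfn1 and 81 with Slfn5, and of all genes 89.5% and 81.3% did, so the sign alone sets the list little apart. The medians set it further apart, at 0.25 over the list and 0.11 over all genes for Slfn1, and 0.23 and 0.057 for Slfn5.

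The genes most like each member in its cell-to-cell pattern, by mean within-sample r over 5 samples, differed between Slfn1 and Slfn5. Among the genes nearest to Slfn1 were Ly6a, a surface antigen of activated lymphocytes (0.40), Shisa5 (0.39), Ifi27l2a (0.39) and Ddx58, a sensor of viral RNA (0.35). Slfn5 was nearest to Parp9 (0.38), to the antiviral effectors Ifit3 (0.36) and Rsad2 (0.35), to Gbp6, an interferon-inducible GTPase (0.35), and to Cmpk2 (0.34). Parp9 reached 0.85 in 1 sample and 0.19 in another. Among the 20 nearest genes, 12 for Slfn1 and 18 for Slfn5 were on the interferon list, which makes up 2.84% of all genes, and 6 genes were among the 20 of both.

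Slfn8 and Slfn9 correlated negatively with the interferon score as deposited. Slfn8 correlated with the interferon score at -0.092, -0.36 and -0.40 in trained samples and -0.32 and -0.28 in untrained samples. Slfn9 did so at -0.43, -0.61 and -0.62 in trained samples and -0.60 and -0.51 in untrained samples. Slfn9 was the 7th lowest of 2843 genes and Slfn8 the 98th lowest. Of the 83 interferon genes 8 (9.64%) had a mean r above 0 with Slfn8 and 2 (2.41%) with Slfn9, against 8.85% and 7.86% of all genes, so the list was near the background. Its median was -0.15 with Slfn8 and -0.28 with Slfn9, against -0.19 and -0.25 over all genes. Among those above 0 was Eif2ak2, the kinase that stops translation on double-stranded RNA, at 0.65 with Slfn8 and 0.68 with Slfn9. Outside that list Ifnar1, a chain of the type I interferon receptor, stood at 0.57 and 0.63. It was alone in this among 20 measured genes of interferon receptors and signalling. The other 19, the second chain of that receptor among them, were below 0 with both. B2m, the light chain of class I molecules, was at -0.49 and -0.64.

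Slfn8 and Slfn9 were high where Kcnq1ot1 was high. Slfn9 correlated with Kcnq1ot1 at 0.85, 0.87 and 0.93 in trained samples and 0.84 and 0.90 in untrained samples, the 9th highest of 2925 genes. Slfn8 did so at 0.68, 0.75 and 0.73 in trained samples and 0.65 and 0.75 in untrained samples, the 23rd highest. Slfn1 stood at a mean of -0.26 and Slfn5 at -0.16, where the median of all genes was -0.27, so neither was set apart from the other genes. Of the 120 cells with a Slfn9 score above 1, all had a Kcnq1ot1 score above 0 and 98.3% had one above 1. The share above 1 was 86 of 92 (93.5%) for Slfn8, 4 of 68 (5.88%) for Slfn1, 7 of 54 for Slfn5 and 24.9% of all cells. Without untrained sample 2 it was 97.5% for Slfn9, 91.7% for Slfn8, 2.44% for Slfn1, 9.09% for Slfn5 and 22.9% of all cells.

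The genes nearest to Slfn8 after Slfn9 were Vmn2r55 (0.75), Grk4 (0.74), F830016B08Rik (0.74) and Gm17821 (0.72). Among those nearest to Slfn9 were Gm17821 (0.89), Grk4 (0.89), Vmn2r55 (0.89) and Gm10785 (0.88). Vmn2r55 is annotated as a vomeronasal receptor and Grk4 as a kinase of G protein-coupled receptors. Of the 20 nearest genes 18 were shared by Slfn8 and Slfn9, none were on the interferon list, and 13 and 11 had provisional names beginning with Gm or ending in Rik. Farthest from both were Tpt1 (-0.51 with Slfn8, -0.66 with Slfn9) and the elongation factor Eef1a1 (-0.50 and -0.65), both abundant messages of the cytoplasm.

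Not all nuclear noncoding RNAs went with the pair. Of 8 transcripts listed as such, 4 were measured, Kcnq1ot1 itself among them. A630089N07Rik followed Kcnq1ot1, at 0.70 with Slfn8 and 0.88 with Slfn9, but whether it is noncoding or nuclear was not checked here. Malat1, an RNA of nuclear speckles, was at -0.23 and -0.37, and Neat1, the scaffold of paraspeckles, at -0.28 and -0.39.

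**Figure D2:**
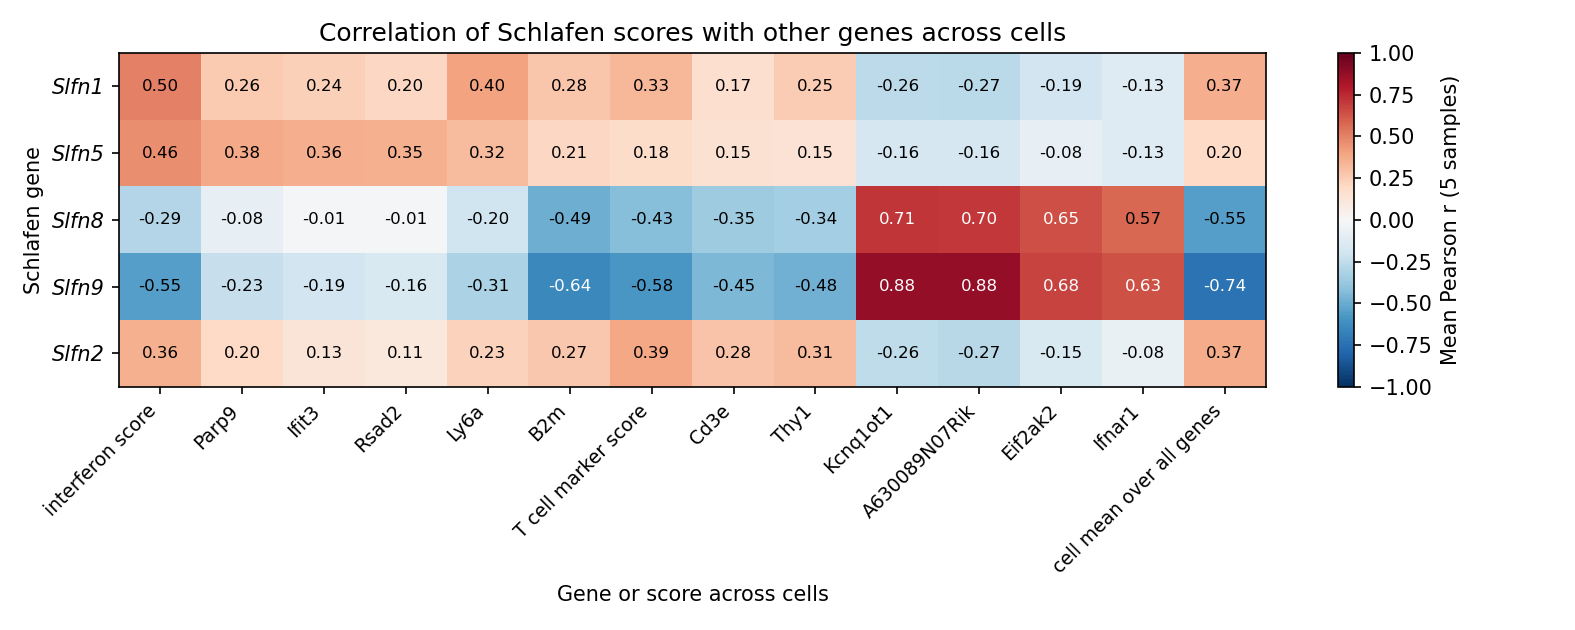
Mean within-sample Pearson r (colour and printed value, 5 samples) of Slfn1, Slfn5, Slfn8, Slfn9 and Slfn2 (rows) with scores and named genes (columns) across cells. Slfn1 and Slfn5 are positive with the interferon score (0.50 and 0.46) and negative with Kcnq1ot1, as the median gene is (-0.27), and Slfn8 and Slfn9 are positive with Kcnq1ot1 (0.71 and 0.88) and negative with the T cell marker score and the cell mean.

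Slfn8 and Slfn9 also ran against the T cell markers. The T cell marker score was the mean of Cd3e, Cd3d, Cd3g, Cd2, Cd247, Lck and Thy1, the signalling chains and surface proteins of the T cell receptor complex and its neighbours. Slfn1 correlated with it at a mean of 0.33 (0.15 to 0.41), Slfn5 at 0.18 (0.12 to 0.25), Slfn8 at -0.43 (-0.60 to -0.28) and Slfn9 at -0.58 (-0.69 to -0.46). All 7 markers had a mean r above 0 with Slfn1 and with Slfn5, and below 0 with Slfn8 and with Slfn9. Of all genes 89.5% were above 0 with Slfn1, 81.3% with Slfn5, 8.85% with Slfn8 and 7.86% with Slfn9, so the sign alone sets the markers little apart. The median of all genes was 0.24, which lies above Slfn5, and Slfn9 was the 11th lowest of 2919 genes. Slfn9 stood at -0.48 with Thy1 and -0.45 with Cd3e, and Slfn1 reached its highest value, 0.29, with Cd3d.

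Slfn2 correlated at 0.36 with the interferon score and 0.39 with the T cell markers, above the median gene at 0.22 and 0.24. With Kcnq1ot1 it stood at -0.26, near the median gene at -0.27. It was at 0.28 with Slfn1, -0.20 with Slfn9 and 0.11 with Slfn5, above the median gene at 0.11, -0.25 and 0.057. Its nearest genes were Rpl18 (0.38), Rpl13a (0.38) and Rps16 (0.37), which encode ribosomal proteins, and 2 of its 20 nearest were on the interferon list.

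The other lists of the T cell programme followed the sign of all genes. Of 20 measured genes of interferon receptors and signalling (25 listed), 18 had a mean r above 0 with Slfn1 and with Slfn5, and 19 below 0 with Slfn8 and with Slfn9. Irf7, a transcription factor that interferon induces (0.33 and 0.23), was positive with Slfn1 and Slfn5, while Ifngr1, a chain of the interferon gamma receptor, was at 0.015 and -0.076. Of 23 measured genes of quiescence and recirculation (32 listed), 23 were above 0 with Slfn1, 21 with Slfn5 and none with Slfn8 or Slfn9. Tcf7, which encodes the factor TCF-1, stood at 0.15, 0.050, -0.35 and -0.39 with Slfn1, Slfn5, Slfn8 and Slfn9. Of 20 measured genes of activation and growth (41 listed), 18 were above 0 with Slfn1 and with Slfn5, and none with Slfn8 or Slfn9. Cd69, an early activation antigen, stood at 0.14, 0.18, -0.11 and -0.20. Of 19 heat shock and dissociation genes (26 listed), 17 were above 0 with Slfn1 and with Slfn5 and none with Slfn8 or Slfn9. Across all genes 8.85% were above 0 with Slfn8 and 7.86% with Slfn9. Of 8 measured myeloid markers 4 were above 0 with Slfn1, 7 with Slfn5 and none with Slfn8 or Slfn9. Few markers of other cells were in the table, 3 of 13 listed for B and NK cells and 1 of 17 for glia, neurons and vessels.

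The mean score of a cell over all genes moved with each of these relations. It correlated at 0.37 with Slfn1, 0.20 with Slfn5, -0.55 with Slfn8 and -0.74 with Slfn9, where the median gene stood at 0.31 and Slfn9 was the 10th lowest of 2926. With the cell mean held constant, the r with the interferon score was 0.36 for Slfn1 and 0.47 for Slfn5, and turned to 0.20 for Slfn8 and -0.018 for Slfn9. The r with Kcnq1ot1 was then 0.54 for Slfn8 and 0.70 for Slfn9, and the r with the T cell markers lay between -0.011 and 0.079 for all 4. Among the 427 cells with a Kcnq1ot1 score at or below 0, Slfn8 correlated with the interferon score at 0.40 and Slfn9 at -0.12. Slfn8 correlated with Slfn5 at 0.29 and with Slfn9 at 0.16 in those cells. The link of Slfn1 and Slfn5 to interferon genes and that of Slfn9 to Kcnq1ot1 kept their sign with the cell mean held constant. The sign of Slfn8 against interferon genes depended on which cells and which scale were used. That of Slfn9 was not stable either. When cells were split at 0 of the interferon score, as tested below, its difference was -0.79 as deposited and 0.13 with the cell mean regressed out.

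Ranking each sample's cells into 5 equal parts, or quintiles, showed that both relations were steep at 1 end. In the top quintile by interferon score Slfn1 averaged 0.53 ± 0.20 and Slfn5 0.34 ± 0.13 (SD, n = 5 samples), against -0.35 ± 0.07 and -0.23 ± 0.14 in the lowest quintile. In the fourth quintile they were still at -0.02 ± 0.14 and -0.07 ± 0.09. Slfn8 and Slfn9 averaged 0.97 ± 0.17 and 1.57 ± 0.23 in the top quintile by Kcnq1ot1, against -0.37 ± 0.07 and -0.54 ± 0.08 in the lowest. Over the 3 lowest quintiles by Kcnq1ot1 all their means lay below 0. Slfn8 did not decline over the whole range of the interferon score, with 0.86 ± 0.22 in the lowest quintile, -0.38 ± 0.04 in the fourth and -0.17 ± 0.09 in the top.

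**Figure D3:**
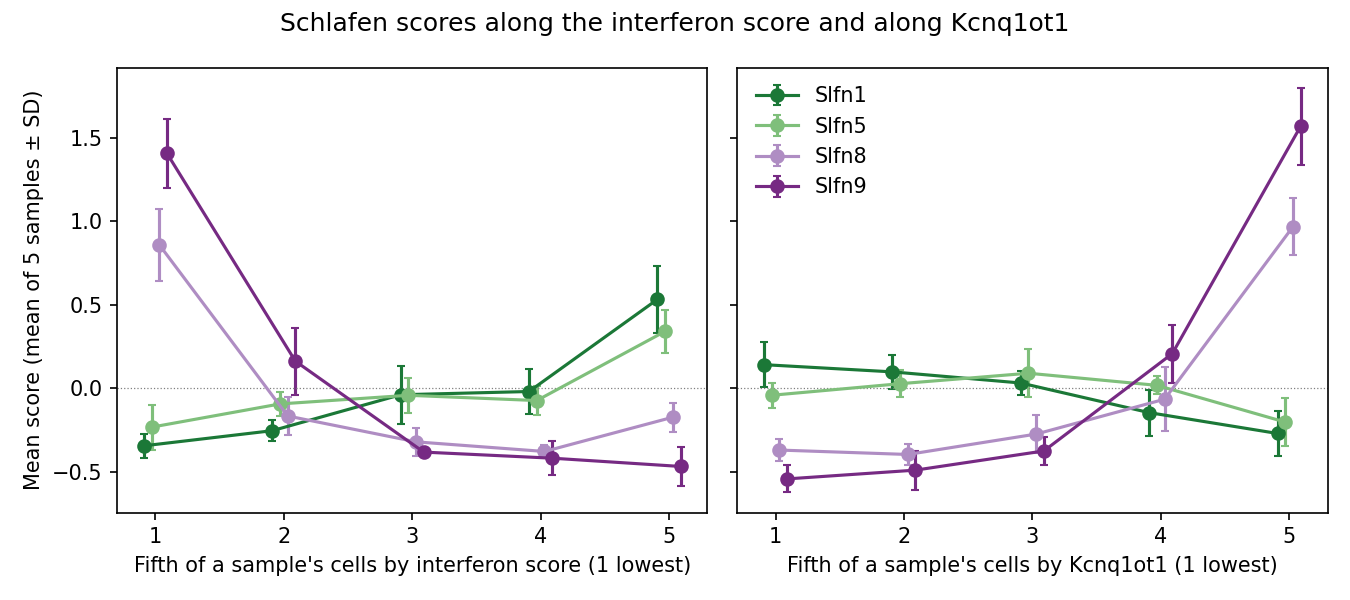
Mean score (vertical axis, mean of 5 samples, bars ± SD) of Slfn1, Slfn5, Slfn8 and Slfn9 in quintiles of each sample's cells ranked by the interferon score (left) or by Kcnq1ot1 (right), from 1 (lowest) to 5. Slfn1 and Slfn5 are high in the top interferon quintile (0.53 and 0.34), and Slfn8 and Slfn9 in the top Kcnq1ot1 quintile (0.97 and 1.57) and in the lowest interferon quintile.

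The same relations were tested over samples by splitting cells at 0 of each score and comparing the 2 classes with sample as a block (limma on class means, two-sided, Benjamini-Hochberg over all genes tested, threshold 0.05). Such a class is a range of a score and not a cell type. Within 0.25 of the split lay 508 of 692 cells for the interferon score and 99 for Kcnq1ot1. All 4 members passed in all 3 splits, but so did 87.5% of genes in the interferon split, 94.4% in the Kcnq1ot1 split and 88.8% in the T cell marker split, so the counts set no member apart. In cells above 0 for Kcnq1ot1 5.95% of genes rose, Slfn8 and Slfn9 among them, and 88.4% fell. In cells above 0 for the interferon score 82.3% rose and 5.17% fell, Slfn8 and Slfn9 among these. In cells above 0 for the T cell markers 83.2% rose and 5.55% fell.

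In cells above 0 for the interferon score Slfn1 had class means of 0.364, 0.339 and 0.232 in trained samples and 0.246 and 0.489 in untrained samples. In cells at or below 0 it had -0.254, -0.160 and -0.218 in trained samples and -0.225 and -0.276 in untrained samples. The classes did not overlap, but the share of all genes without overlap was not counted, here or in the later comparisons of classes. Slfn1 rose by 0.56 ± 0.04 (SE; adjusted p = 1.13e-08). Slfn5 rose by 0.27 ± 0.04 (adjusted p = 3.78e-05), Slfn8 fell by 0.36 ± 0.04 (adjusted p = 6.53e-07) and Slfn9 fell by 0.79 ± 0.05 (adjusted p = 1.44e-09), where the median gene rose by 0.19. With the cell mean regressed out, 24 genes passed, and Slfn1 (0.24, adjusted p = 0.0154), Slfn8 (0.18, adjusted p = 0.0154) and Slfn9 (0.13, adjusted p = 0.0374) were among them, the last pair now higher in interferon-high cells. Slfn5 then stood at 0.12 (adjusted p = 0.0889). Among cells with a Kcnq1ot1 score at or below 0, Slfn8 was at 0.11 (adjusted p = 0.0878) and Slfn9 at -0.062 (adjusted p = 0.315). With the split at 0.25, Slfn8 stood at -0.060 (adjusted p = 0.600).

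In cells above 0 for Kcnq1ot1 Slfn9 had class means of 0.785, 1.218 and 0.844 in trained samples and 0.601 and 1.265 in untrained samples. In cells at or below 0 it had -0.442, -0.414 and -0.459 in trained samples and -0.405 and -0.615 in untrained samples. The classes were far apart in each sample, and Slfn9 rose by 1.41 ± 0.09 (adjusted p = 2.45e-08). Slfn8 rose by 0.83 ± 0.07 (adjusted p = 1.52e-07), while Slfn1 fell by 0.34 ± 0.04 (adjusted p = 4.91e-06) and Slfn5 by 0.15 ± 0.04 (adjusted p = 0.00182), where the median gene fell by 0.23. With the cell mean regressed out 11 genes passed and no member did, with Slfn9 at 0.33 (adjusted p = 0.0770) and Slfn8 at 0.19 (adjusted p = 0.137). Among cells above 0 for the T cell markers limma called 0 genes (15.8% at an unadjusted p under 0.05), with Slfn9 at 0.58 and Slfn8 at 0.39 (adjusted p = 0.218 each). Markers of myeloid cells (8 of 25 measured) moved with this split, with summed scores per sample of -3.64 to -1.61 in Kcnq1ot1-high cells and -0.18 to 2.55 in the others. Without cells of high myeloid score Slfn9 rose by 1.42 and Slfn8 by 0.83.

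By the T cell markers, Slfn1 rose by 0.40 ± 0.05 (adjusted p = 6.72e-05) and Slfn5 by 0.14 ± 0.04 (adjusted p = 0.00561) in cells above 0. Slfn8 fell by 0.57 ± 0.05 (adjusted p = 9.74e-06) and Slfn9 by 1.00 ± 0.06 (adjusted p = 1.39e-06), where the median gene rose by 0.20. With the cell mean regressed out limma called 0 genes in this split (16.7% at an unadjusted p under 0.05), and the 4 members lay between -0.017 and 0.043. Among cells with a Kcnq1ot1 score at or below 0, Slfn1 rose by 0.31 ± 0.10 (adjusted p = 0.0474). In those cells Slfn5 stood at 0.041, Slfn8 at -0.042 and Slfn9 at -0.087 (adjusted p = 0.667, 0.649 and 0.155). Of the 120 cells with a Slfn9 score above 1, 97.5% lay at or below 0 for the T cell markers, as did 86 of 92 (93.5%) for Slfn8, 15 of 68 (22.1%) for Slfn1 and 19 of 54 (35.2%) for Slfn5, against 50.1% of all cells. Without untrained sample 2 the shares were 97.5%, 95% (57 of 60), 17.1% and 33.3%, against 45.2% of all cells.

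Mean scores of Slfn1 and Slfn5 were lower in CD8-gated than in CD4-gated cells in all 5 samples, but the differences did not pass the test. The gate for CD8 was the mean of Cd8a and Cd8b1, that for CD4 was Cd4 itself, and a cell counts as CD8-gated or CD4-gated if it passed 0 in that gate and not in the other. Of all cells 22.98% were CD8-gated and 21.1% CD4-gated, 57 were above both gates and 330 below both, and 50 CD8-gated and 34 CD4-gated cells lay within 0.25 of their gate. Cells above 1, counted over all samples and with no test, fell unevenly over the gates. Of 54 cells with a Slfn5 score above 1, 4 (7.41%) were CD8-gated and 26 (48.1%) CD4-gated, and of 68 such Slfn1 cells 8 (11.8%) were CD8-gated and 26 (38.2%) CD4-gated. Without untrained sample 2 these were 6.06% and 51.5% of 33 Slfn5 cells, and 9.76% and 39.02% of 41 Slfn1 cells, where 25.3% of all cells were CD8-gated and 23.5% CD4-gated.

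Slfn5 had means of -0.008, -0.269 and -0.140 in the CD8-gated cells of trained samples and -0.098 and -0.216 in those of untrained samples. In CD4-gated cells it had 0.141, 0.120 and 0.208 in trained samples and 0.050 and 0.464 in untrained samples. The classes did not overlap, and the difference of CD8-gated minus CD4-gated cells was -0.34 ± 0.08 (SE; adjusted p = 0.107), lower in 5 of 5 samples and the 5th lowest of 2923 genes. Slfn1 had means of -0.222, 0.022 and 0.030 in the CD8-gated cells of trained samples and -0.129 and -0.082 in those of untrained samples. In CD4-gated cells it had 0.120, 0.086 and 0.116 in trained samples and 0.080 and 0.546 in untrained samples. Every CD4-gated mean was above every CD8-gated mean, and the difference was -0.27 ± 0.08 (adjusted p = 0.184), lower in 5 of 5 samples. How many of all genes had no overlap between these classes was not counted.

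No member passed the threshold in this comparison, which called 5 of 2923 genes (0.171%), with 0.0342% of genes lower and 0.137% higher in CD8-gated cells. In all 5 samples 9.37% of genes were lower in CD8-gated cells and 4.45% higher. The differences in untrained sample 2 were -0.68 for Slfn5 and -0.63 for Slfn1, and without it the differences were -0.26 (adjusted p = 0.163) and -0.18 (adjusted p = 0.328). Slfn5 passed on scores divided by their SD (-0.60, adjusted p = 0.00107), with the cell mean regressed out (-0.32, adjusted p = 0.0160) and among cells with a Kcnq1ot1 score at or below 0 (-0.40, adjusted p = 0.0448). Slfn1 passed in the last alone (-0.34, adjusted p = 0.0430). These settings called 53, 65 and 35 of 2923 genes in turn. No member passed when weighted by cells, with the cut at 0.25, or with any 1 sample left out. Nor did any pass among cells above 0 for the T cell markers or without cells of high myeloid score. Of 83 interferon genes 66 were lower in CD8-gated cells, none past the threshold, with a median of -0.080 against -0.027 over all genes. The lowest of them was Ly6a at -0.43 ± 0.09 (adjusted p = 0.0936). This lean was not particular to interferon genes. Of 23 genes of quiescence and recirculation 17 were lower (median -0.11). So were 15 of 19 heat shock and dissociation genes (-0.067) and 12 of 20 genes of activation and growth (-0.077). Of the 7 T cell markers 4 were higher, with a median of 0.10.

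Myeloid markers moved with this comparison. All 8 measured were lower in CD8-gated cells, 1 past the threshold, and their summed score per sample ran from -3.84 to -0.94 in CD8-gated and from -0.88 to 1.45 in CD4-gated cells. Cells of high myeloid score were then left out, a setting chosen after seeing the data. The limma difference was then -0.38 for Slfn5 (adjusted p = 0.265) and -0.30 for Slfn1 (adjusted p = 0.372). With those cells kept it was -0.34 for Slfn5 and -0.27 for Slfn1. Whether myeloid cells account for the difference between the gates was not tested.

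Slfn8 and Slfn9 differed between the gates in no common direction. Slfn9 was higher in CD8-gated than CD4-gated cells by 0.57 in trained sample 1 and 0.54 in untrained sample 2, and lower by 0.051, 0.19 and 0.047 in trained samples 2 and 3 and untrained sample 1. The mean difference was 0.16 ± 0.10 (adjusted p = 0.512), and that of Slfn8 was 0.090 ± 0.080 (adjusted p = 0.666). Kcnq1ot1 itself averaged 0.155, -0.129 and -0.129 in CD8-gated cells of trained samples and 0.053 and 0.098 in those of untrained samples, against -0.431, 0.058 and 0.139 in CD4-gated cells of trained and 0.057 and -0.570 in those of untrained samples. The samples in which Slfn9 was higher in CD8-gated cells were those in which Kcnq1ot1 was.

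**Figure D4:**
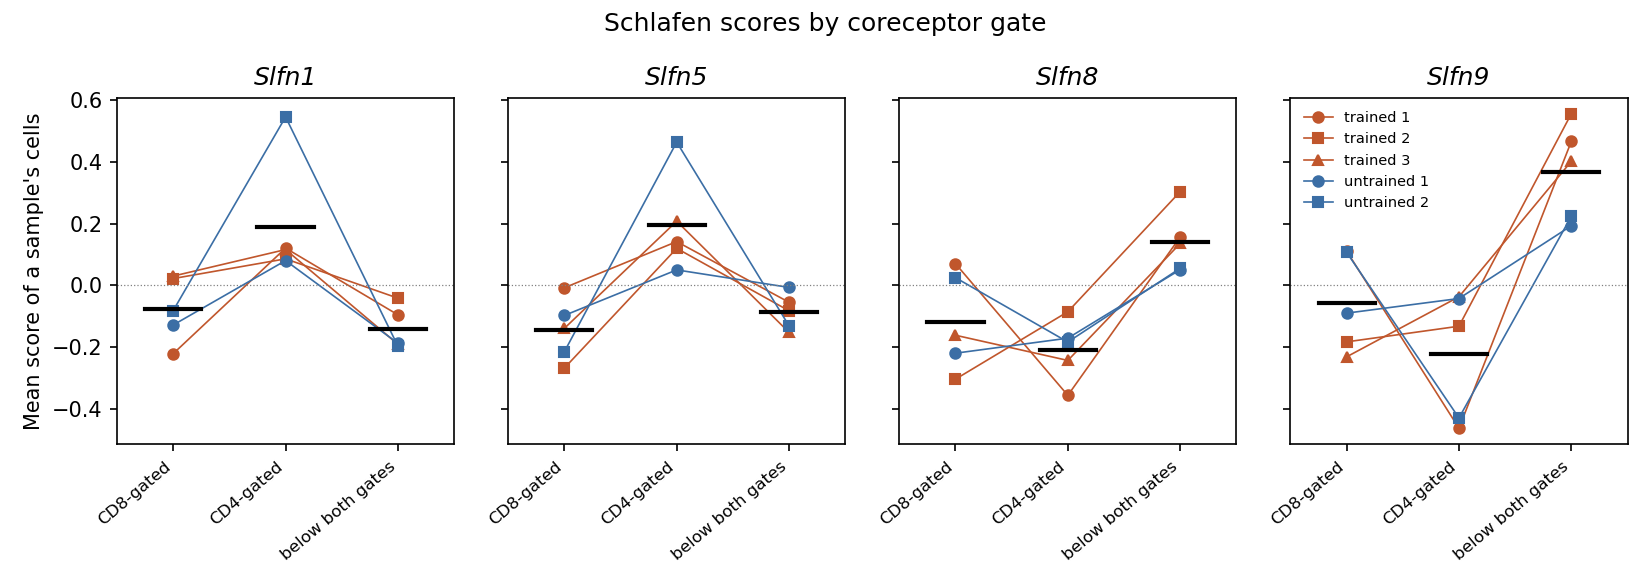
Mean score of a sample's cells (vertical axis) for Slfn1, Slfn5, Slfn8 and Slfn9 in CD8-gated cells, CD4-gated cells and cells below both gates; each line is a sample, black bars are means of 5 samples. CD4-gated means of Slfn1 and Slfn5 lie above the CD8-gated means in all 5 samples, and Slfn8 and Slfn9 are highest in cells below both gates.

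The same correlations were taken inside each class of the gates. Among CD8-gated cells (17 to 40 per sample) the mean r with the interferon score was 0.33 for Slfn1, 0.45 for Slfn5, -0.31 for Slfn8 and -0.51 for Slfn9. Among CD4-gated cells (16 to 38 per sample) it was 0.56, 0.55, 0.17 and -0.40 in the same order. The Slfn8 value there (-0.087 to 0.76) rested on trained sample 1, and was 0.025 without it. Among cells below both gates the r was 0.45 for Slfn1, 0.20 (-0.013 to 0.41) for Slfn5, -0.57 for Slfn8 and -0.70 for Slfn9. The r of Slfn9 with Kcnq1ot1 was 0.88 among CD8-gated cells, 0.83 among CD4-gated ones and 0.85 below both gates, and that of Slfn8 0.76, 0.55 and 0.72. Slfn1 correlated with Slfn5 at -0.023 (-0.14 to 0.22) in CD8-gated cells, 0.37 (0.20 to 0.57) in CD4-gated cells and 0.016 (-0.34 to 0.27) below both gates. It was above 0 in every sample among CD4-gated cells alone, and the difference between classes was not tested.

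Against the cells below both gates, cells above 0 in either gate were lower in Slfn8 and Slfn9 and higher in Slfn1 and Slfn5. Slfn9 had means of -0.218, -0.165 and -0.213 in the gated cells of trained samples and -0.098 and -0.197 in those of untrained samples. In cells below both gates it had 0.466, 0.556 and 0.402 in trained samples and 0.193 and 0.223 in untrained samples. The classes did not overlap, and Slfn9 fell by 0.55 ± 0.06 (adjusted p = 5.12e-06) and Slfn8 by 0.31 ± 0.04 (adjusted p = 9.10e-05). Slfn1 rose by 0.23 ± 0.05 (adjusted p = 0.00106) and Slfn5 by 0.13 ± 0.04 (adjusted p = 0.0131), where the median gene rose by 0.13. In this comparison 70.8% of genes passed, 66.4% higher and 4.41% lower in gated cells, so passing is near the background and the direction of Slfn8 and Slfn9 is the less common one. With the cell mean regressed out limma called 0 genes (9.17% at an unadjusted p under 0.05), and Slfn8 (0.054) and Slfn9 (0.071) turned to the other sign. Without trained sample 3 Slfn5 stood at 0.11 (adjusted p = 0.0646). The medians of all 7 T cell markers in cells below both gates lay between -0.45 and -0.26.

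Training was the comparison of the study's design, and no member passed the threshold in it, with 3 samples against 2. In all sorted cells the difference of trained minus untrained samples was 0.014 ± 0.027 for Slfn1, 0.007 ± 0.035 for Slfn5, 0.022 ± 0.030 for Slfn8 and 0.039 ± 0.030 for Slfn9 (SE; adjusted p = 0.898, 0.963, 0.864 and 0.771). Limma called 0 of 2926 genes (0%), with 7.72% at an unadjusted p under 0.05 and no member among them. In each member trained and untrained samples overlapped, while 11% of genes had all trained above all untrained samples and 14% all below. Slfn2 stood at 0.073 ± 0.030 (adjusted p = 0.563) and Kcnq1ot1 at 0.076 ± 0.031 (adjusted p = 0.563). All 8 measured myeloid markers were lower in trained samples, none past the threshold, with summed scores of -0.87, -1.29 and -0.92 in trained and -0.53 and 0.27 in untrained samples. Without cells of high myeloid score Slfn1, Slfn8 and Slfn9 stood at -0.008, -0.025 and -0.021.

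In CD8-gated cells the differences with training were 0.049 ± 0.084 for Slfn1, 0.018 ± 0.083 for Slfn5, -0.034 ± 0.094 for Slfn8 and -0.11 ± 0.09 for Slfn9, with adjusted p between 0.737 and 0.965. Limma called 0 of 2923 genes (0%), and 9% had an unadjusted p under 0.05, with no member among them. In CD4-gated cells they were -0.21 ± 0.12 for Slfn1, -0.10 ± 0.11 for Slfn5, -0.051 ± 0.095 for Slfn8 and 0.025 ± 0.134 for Slfn9, each with an adjusted p of 0.999. Limma again called 0 of 2923 genes (0%), with 2.43% at an unadjusted p under 0.05 and no member among them. The Slfn1 value in CD4-gated cells rested on untrained sample 2, whose mean was 0.546, while trained samples had 0.120, 0.086 and 0.116 and untrained sample 1 had 0.080. Without untrained sample 2 it was 0.027, and without untrained sample 1 it was -0.44 (adjusted p = 0.0819). The Slfn5 value was likewise 0.11 without untrained sample 2 and -0.31 (adjusted p = 0.135) without untrained sample 1.

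The change with training was then compared between the gates, as its value in CD8-gated minus that in CD4-gated cells. It was 0.25 ± 0.15 for Slfn1, 0.12 ± 0.15 for Slfn5, 0.017 ± 0.161 for Slfn8 and -0.14 ± 0.20 for Slfn9, with adjusted p between 0.765 and 0.989. Limma called 0 of 2923 genes (0%), with 5.92% at an unadjusted p under 0.05, and 10 genes without untrained sample 1, no member in either. Leaving out 1 sample moved the Slfn1 value between 0.045 and 0.46.

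**Figure D5:**
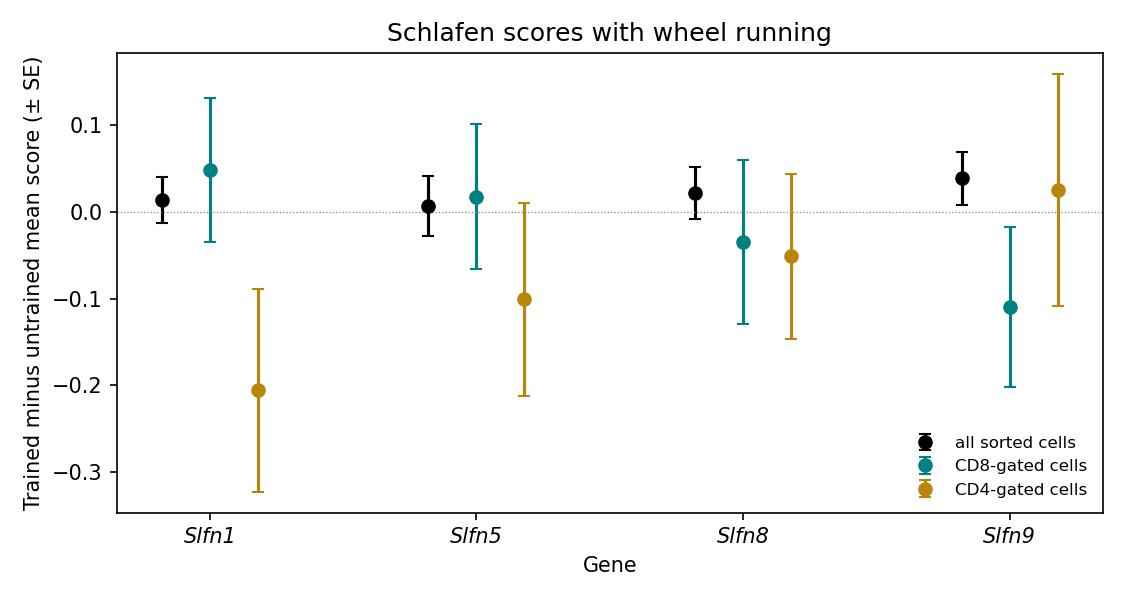
Trained minus untrained mean score (vertical axis, bars ± SE) of Slfn1, Slfn5, Slfn8 and Slfn9 in all sorted cells and in the CD8-gated and CD4-gated classes. The values in all sorted cells lie between 0.007 and 0.039, and the widest departure is Slfn1 in CD4-gated cells at -0.21, with an SE of 0.12.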

How the data were processed

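Scores of single CD3+ T cells from 3 trained and 2 untrained samples were used as the authors deposited them, and each cell was given to the sample whose number its name carries. Reads were processed with Cell Ranger, per the submitters' processing notes. Build and normalisation: not given in the sources used here. The deposited score table is called a count matrix, yet its values are centred and below 0 in part, so no count test was run and no precision from depth can be given. Of 331 well names 221 occur in more than 1 sample, as plate wells do, and 0 pairs of cells were identical.

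Mean scores per sample and class were fitted with limma 3.58.1 (R 4.3.3), with all mouse genes in each fit and sample as a block between classes. The genes of a gate or score were left out of its own test. Correlations were Pearson r within a sample, averaged over samples with equal weight (pandas 2.3.3, numpy 2.4.6, Python 3.11.15). Classes were cut at a score of 0. The scripts were tested on simulated data. Named were the members, for each the 5 genes with the highest and up to 3 with the lowest r, list genes with high or low r to the members' mean, the markers of the classes and Kcnq1ot1, leaving out genes that are not reported here. The members and lists were chosen with earlier results of these data known. Other settings were scaling by SD, weighting by cells, another cut, subsets of cells, the cell mean regressed out and leaving out each sample. Leaving out cells with a mean myeloid score above 0.5, and counting cells above 1 without untrained sample 2, were added after seeing the data.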

Additional observations from a re-analysis of the deposited data

How the results depend on the processing

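The scores carry no counts, so no depth limits can be set, and untrained sample 2 stood apart from the rest in scale. With 2 untrained samples, leaving out 1 leaves a single library in that group. Shares of genes called are by limma at an adjusted p under 0.05, over all genes tested, and the other values are differences of scores. No paired analysis was possible because the replicate numbers only follow the order of deposition, and the sources used here tie no trained to an untrained sample. This concerns training alone, since classes of cells were compared within samples.

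Dividing scores by their SD gave -0.0020 for Slfn5 with training in all sorted cells, -0.0104 for Slfn9 with training in CD4-gated cells, and 1.81% of genes called and -0.596 for Slfn5 between CD8-gated and CD4-gated cells. Weighting by cells gave Slfn5 -0.0052 with training in all sorted cells and -0.0101 in CD8-gated cells, and Slfn8 -0.0463 for the difference of the training change between the gates. The cut at 0.25 gave, with training in CD8-gated cells, Slfn1 -0.0026, Slfn5 -0.0497, Slfn8 0.189 and Slfn9 0.214. It also gave Slfn8 -0.0066 between the gates, Slfn5 -0.0422 and Slfn9 0.196 for the difference of the training change, and Slfn8 -0.0599 in the interferon split.

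Keeping cells with a T cell marker score above 0 gave Slfn1 -0.0878, Slfn5 -0.0224 and Slfn8 -0.0275 with training in all sorted cells, and Slfn8 0.0919 and Slfn9 0.109 in CD8-gated cells. Between the gates it called 0.376% and Slfn8 at -0.0050. For gated against other cells it called 0.103%, with Slfn1 0.0886, Slfn5 0.106, Slfn8 0.0352 and Slfn9 -0.118. Slfn9 was at 0.0992 for the difference of the training change. The interferon split called 5.45%, with Slfn5 0.234, Slfn8 0.0677 and Slfn9 -0.0818. The Kcnq1ot1 split called 0% (15.8% at an unadjusted p under 0.05), with Slfn1 -0.228, Slfn5 -0.0515, Slfn8 0.388 and Slfn9 0.581.

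Keeping cells with a Kcnq1ot1 score at or below 0 gave, with training in CD8-gated cells, Slfn1 -0.0049, Slfn5 -0.0654, Slfn8 0.0461 and Slfn9 0.132, and Slfn8 0.0438 in CD4-gated cells. Between the gates it called 1.20%, with Slfn1 -0.339, Slfn5 -0.396 and Slfn8 -0.0536. For gated against other cells it called 1.51%, with Slfn1 0.112, Slfn5 0.106, Slfn8 0.0077 and Slfn9 -0.0621. Slfn9 was at 0.0770 for the difference of the training change. The interferon split called 20.6%, with Slfn8 0.111 and Slfn9 -0.0624, and the T cell marker split 21.8%, with Slfn5 0.0407, Slfn8 -0.0417 and Slfn9 -0.0874. The mean r in these cells was, with T cell markers, 0.227 for Slfn1, 0.098 for Slfn5, 0.023 for Slfn8 and -0.160 for Slfn9. With Kcnq1ot1 it was -0.052, 0.055, 0.115 and 0.361 in that order, and with the interferon score 0.402 for Slfn8 and -0.121 for Slfn9.

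Regressing out the cell mean gave 2.22% and Slfn5 -0.317 between the gates, and 0% (9.17% at an unadjusted p under 0.05) for gated against other cells, with Slfn1 0.0199, Slfn5 0.0309, Slfn8 0.0544 and Slfn9 0.0713. Slfn9 was at 0.236 for the difference of the training change. The interferon split called 0.844%, with Slfn5 0.125, Slfn8 0.178 and Slfn9 0.133. The Kcnq1ot1 split called 0.376%, with Slfn1 0.0370, Slfn5 0.0198, Slfn8 0.194 and Slfn9 0.330, and the T cell marker split 0% (16.7% at an unadjusted p under 0.05), with Slfn1 0.0427, Slfn5 -0.0171, Slfn8 0.0308 and Slfn9 0.0190. As a partial r given the cell mean, Slfn1 had 0.362 with the interferon score, 0.079 with T cell markers and 0.059 with Kcnq1ot1. Slfn5 had 0.039 with T cell markers and -0.016 with Kcnq1ot1. Slfn8 had 0.201, -0.0021 and 0.538, and Slfn9 -0.018, -0.011 and 0.703, with the interferon score, T cell markers and Kcnq1ot1 in turn. Spearman's rho was 0.414 for Slfn1 and 0.264 for Slfn5 with the interferon score, 0.132 for Slfn5 with T cell markers, 0.571 for Slfn8 with Kcnq1ot1, and -0.644 and 0.775 for Slfn9 with the interferon score and Kcnq1ot1. Leaving out cells of high myeloid score, a setting chosen after seeing the data, gave Slfn1 -0.0079, Slfn8 -0.0253 and Slfn9 -0.0209 with training in all sorted cells, Slfn9 -0.0114 in CD4-gated cells, and 0.0342% between the gates. The cause of these changes was not tested.

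Leaving out each sample in turn gave 0% to 0.239% between the gates, the lowest without trained sample 1 and the highest without untrained sample 1. With training in all sorted cells it gave 0% to 0.103%, Slfn1 -0.010 to 0.026, Slfn5 -0.031 to 0.032, Slfn8 -0.025 to 0.069 and Slfn9 0.0036 to 0.074. In CD8-gated cells Slfn5 ran from -0.047 to 0.083 and Slfn8 from -0.157 to 0.088. In CD4-gated cells Slfn1 ran from -0.438 to 0.027, Slfn5 from -0.308 to 0.106, Slfn8 from -0.123 to 0.013 and Slfn9 from -0.168 to 0.219. The difference of the training change had 0% to 0.342%, Slfn5 -0.147 to 0.385, Slfn8 -0.148 to 0.174 and Slfn9 -0.428 to 0.157. Slfn5 ran from 0.103 to 0.158 for gated against other cells. A lone untrained sample was assumed to vary like the trained ones.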
